A study of Mus musculus with 9 samples.

Results

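Liver exosomes of HFFC-fed mice that lack Hsp90β in hepatocytes (KO HFFC) were compared with those of HFFC-fed floxed mice that retain it (flox HFFC). Exosomes are small vesicles that cells release, and HFFC is a steatohepatitis diet rich in fat, fructose and cholesterol. The comparison takes 6 of the 9 libraries of the series, 3 KO HFFC and 3 flox HFFC, and all 722 miRNA entries of the count table. The knockout mice carry floxed Hsp90ab1, the gene of Hsp90β, together with a Cre recombinase driven by the Albumin promoter. The flox HFFC mice carry the floxed alleles with the gene intact. All 6 mice thus share the floxed alleles and the diet. The remaining 3 libraries, from floxed mice on chow (flox chow), entered the low-count filter, the scaling and the estimate of the spread between mice. Their values are also quoted beside some results. The study counts 3 mice a group, and the labels give neither an age nor a duration of the diet. The study describes the knockout as one of hepatocytes. The vesicles, in contrast, were pelleted from the medium of collagenase-treated liver pieces and can come from any liver cell. In such a mixture, fewer vesicles of a cell type and less of a miRNA per vesicle cannot be told apart. A miRNA table does not cover the Hsp90ab1 mRNA, so the deletion was not checked in these libraries.

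MicroRNAs are short RNAs cut from hairpin precursors. Each pairs with target mRNAs mainly through its seed, bases 2 to 8 counted from the 5′ end, and lowers their translation and stability. miRNAs that share a seed form a family with overlapping targets. Hsp90β is a chaperone whose clients include Argonaute proteins, which hold mature miRNAs, and liver exosomes carry miRNAs between hepatocytes, macrophages, endothelial and stellate cells.

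The text dwells on let-7, lower in KO HFFC by its values, and on the miR-10, miR-99/100 and miR-125 families, higher by theirs. The latter are listed together though their seeds differ. These lists were chosen with earlier results of these data known, and the shares over all entries set beside them include their own members. Their counts are thus no independent evidence of a difference. The mature sequences of members on which the text dwells are printed with the seed in capitals. They are taken from the RefSeq miRNA annotation of GRCm38.p6, which held 498 of the 591 known miRNAs of the table and 184 of the 218 known miRNAs tested. The let-7 members of low p, with the abundant let-7a-5p, were these.
let-7i-5p: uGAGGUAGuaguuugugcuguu
let-7g-5p: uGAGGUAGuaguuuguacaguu
miR-98-5p: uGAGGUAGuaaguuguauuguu
let-7f-5p: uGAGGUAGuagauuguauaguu
let-7a-5p: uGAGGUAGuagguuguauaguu
Members of the miR-10, miR-99/100 and miR-125 families, all higher in KO HFFC by their fold changes, had these sequences.
miR-125a-5p: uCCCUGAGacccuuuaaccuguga
miR-125b-5p: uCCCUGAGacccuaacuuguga
miR-99b-5p: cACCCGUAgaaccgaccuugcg
miR-100-5p: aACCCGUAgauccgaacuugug
miR-99a-5p: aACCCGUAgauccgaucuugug
miR-10b-5p: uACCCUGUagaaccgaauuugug
miR-10a-5p: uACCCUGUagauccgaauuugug
Other miRNAs of low p are shown for their seeds, which none of these families holds.
miR-127-3p: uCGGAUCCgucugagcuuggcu
miR-92b-3p: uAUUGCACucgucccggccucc
miR-181b-5p: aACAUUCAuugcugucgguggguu
miR-501-3p: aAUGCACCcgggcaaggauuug
miR-326-3p: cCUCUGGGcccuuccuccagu
miR-148a-3p: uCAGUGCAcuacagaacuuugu
The last set was high in only a pair of knockout libraries, and its miR-204-5p and miR-211-5p share a seed.
miR-204-5p: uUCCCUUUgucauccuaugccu
miR-211-5p: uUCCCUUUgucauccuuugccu
miR-205-5p: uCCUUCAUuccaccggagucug
miR-200c-3p: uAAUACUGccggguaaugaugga

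Members of a family differ by few bases, so the authors' counting may have split or shared their reads. Counted from the 5′ end, let-7f-5p differs from let-7a-5p by A12G and let-7g-5p differs from let-7i-5p by A17G and A19U. miR-99a-5p differs from miR-100-5p by U16A, miR-10b-5p from miR-10a-5p by A12U, and miR-204-5p from miR-211-5p by A17U. miR-125a-5p has 24 bases and miR-125b-5p 22. Values of close members, let-7 above all, are uncertain to that extent.

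The KO HFFC libraries held 422825, 457678 and 306626 miRNA counts, against 293708, 604672 and 403469 in flox HFFC. These were 1.58%, 1.79% and 1.20% of all sequenced tags in KO HFFC and 1.18%, 2.42% and 1.60% in flox HFFC. The means of 1.52% ± 0.300 and 1.73% ± 0.630 (SD, n = 3 each) did not differ beyond the spread (exact two-sided permutation test, p = 0.7, where 3 against 3 libraries cannot give less than 0.1). Without flox HFFC replicate 2, the library with the most miRNA counts of the 6, the difference of −0.211 percentage points turned to 0.132. Where a library showed 0 counts, up to 3 could have been present, or 4.96 to 10.2 CPM of its miRNA counts (CPM stands for counts per 1000000). The common biological coefficient of variation was 55.0%. Entries were called at an edgeR quasi-likelihood p adjusted by Benjamini-Hochberg under 0.05, and the low-count filter kept 248 of the 722 entries, 30 of them predicted. Of the 20 entries of lowest p described here, 10 in each direction, miR-125a-5p, miR-10b-5p, miR-92b-3p and predicted miR311-3p passed that filter only through KO HFFC and miR-501-3p only through flox HFFC. A difference in these 5 is in part a condition of having been tested.

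KO HFFC replicates 2 and 3 stood apart from the other 7 libraries in 8 miRNAs, which were picked out after their values were seen. Each had at least 10 counts in both libraries and a share of miRNA counts over 5 times that in any other library. Together they made up 0.0140%, 0.404% and 1.14% of miRNA counts in KO HFFC replicates 1, 2 and 3, against 0.0140%, 0.00463% and 0.00347% in flox HFFC. The 95% Wilson intervals of the high shares were 0.387% to 0.423% in replicate 2 and 1.10% to 1.18% in replicate 3. The leading results are therefore given with and without these libraries.

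No miRNA passed the test between KO HFFC and flox HFFC. Of 248 entries edgeR called 0 (0%), with a lowest adjusted p of 0.232. At an unadjusted p under 0.05 stood 20 entries (8.06%), 12 higher (4.84%) and 8 lower (3.23%) in KO HFFC, or 10 and 2 with library tag totals in place of TMM, the scaling by trimmed means that edgeR uses. Values of the groups did not overlap for 35 entries (14.1%), 17 higher (6.85%) and 18 lower (7.26%). Over all tested entries 48.4% had a log2 fold change above 0 and 51.6% below, with a median of −0.03. DESeq2, which gave an adjusted p to 718 entries, called 5, all higher in KO HFFC: miR-204-5p, miR-205-5p, miR-92b-3p, miR-181b-5p and miR-125a-5p. limma-voom called 0. Without KO HFFC replicate 1 edgeR called 5, which were miR-135b-5p, miR-204-5p, miR-205-5p, miR-92b-3p and miR-125a-5p, and without flox chow replicate 3 it called miR-205-5p. Each value that follows is thus a description of 3 libraries against 3, and "higher" or "lower" says only how those values lay.

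**Figure D1:**
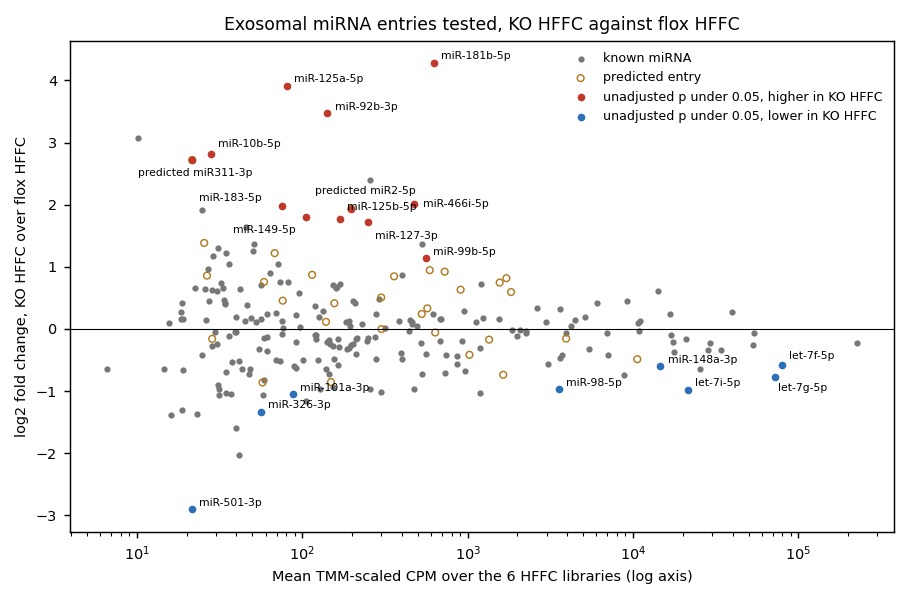
Log2 fold change of KO HFFC over flox HFFC (vertical axis) for the 248 tested entries against their mean TMM-scaled CPM over the 6 HFFC libraries (horizontal log axis). Filled red and blue points are the 12 higher and 8 lower entries at an unadjusted p under 0.05, and open circles are predicted entries. The let-7 members of low p lie at high abundance with small fold changes, whereas miR-125a-5p, miR-92b-3p and miR-10b-5p lie at low abundance with large ones.

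The let-7 family restrains growth and insulin signalling through targets such as Hmga2, Ras and the insulin receptor pathway, and was abundant in these exosomes. It took 22.8%, 21.9% and 24.8% of miRNA counts in KO HFFC, against 25.0%, 33.4% and 27.6% in flox HFFC. The groups did not overlap, though KO HFFC replicate 3 and flox HFFC replicate 1 nearly met, and flox chow, at 31.4%, 26.5% and 24.0%, spanned both. Of its 10 tested members 9 had a log2 fold change below 0, with a median of −0.46, against −0.03 over all entries. These include let-7k, which passed the low-count filter only with both HFFC groups and would have failed without either. Of the 9 others 1 was above 0, and their median was −0.33. At an unadjusted p under 0.05 and lower in KO HFFC stood 4 of the 10, against 3.23% of all entries, and the same 4 did not overlap between the groups, against 7.26%. The lowest edgeR adjusted p of the family was 0.232, so no member passed, and the list was chosen with earlier results of these data known. With library tag totals in place of TMM the median was −0.47 with 9 members still below 0. None of the 4 kept an unadjusted edgeR p under 0.05 in that fit, where only 2 entries lower in KO HFFC had one. Without KO HFFC replicates 2 and 3 the median was −0.50, with 6 below 0.

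let-7i-5p had 18200, 11016 and 14305 TMM-scaled CPM in KO HFFC, against 24987, 39700 and 21003 CPM in flox HFFC. All 3 knockout values lay under all 3 flox HFFC values, with a log2 fold change of −0.98 ± 0.29 (SE). let-7g-5p, encoded within an intron of Wdr82, had 51116, 43830 and 64025 CPM in KO HFFC, against 87401, 103331 and 80727 CPM in flox HFFC (−0.77 ± 0.24). In flox chow it had 92036, 56201 and 89280 CPM, which spans the gap between the HFFC groups. miR-98-5p, from an intron of Huwe1, had 1778, 2506 and 2946 CPM in KO HFFC, against 3381, 6250 and 4556 CPM in flox HFFC (−0.97 ± 0.33). let-7f-5p, made in part from the same Huwe1 intron, had 56229, 60145 and 74636 CPM in KO HFFC, against 82592, 111232 and 91135 CPM in flox HFFC (−0.58 ± 0.23). Leaving out any single library kept let-7i-5p between −1.20 and −0.75, let-7g-5p between −0.96 and −0.69, miR-98-5p between −1.17 and −0.80 and let-7f-5p between −0.73 and −0.53. Without KO HFFC replicates 2 and 3 together, let-7i-5p was at −0.57, let-7g-5p at −0.75, miR-98-5p at −1.34 and let-7f-5p at −0.69.

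The remaining members, apart from the rare let-7k, lay nearer to 0. let-7a-5p had 22447, 24989 and 27864 CPM in KO HFFC, against 26936, 35897 and 32082 CPM in flox HFFC (−0.33 ± 0.21). let-7c-5p was at −0.23 ± 0.27, let-7e-5p at −0.23 ± 0.42 and let-7b-5p at −0.04 ± 0.28. The only positive value was that of let-7d-5p, at 0.12 ± 0.23. let-7k was rare, with 11, 1 and 0 counts in KO HFFC and 7, 19 and 4 in flox HFFC (−1.38 ± 1.15). The passenger arm let-7i-3p lay at −1.05 ± 0.64, near its main arm, and let-7f-2-3p at −0.66 ± 0.83. The let-7i hairpin is at chr10:122985640-122985724 (minus strand) and the let-7g hairpin at chr9:106178840-106178927 (plus strand).

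The miR-10, miR-99/100 and miR-125 families behaved as the reverse of let-7 in these values. miR-125 is the mammalian counterpart of Caenorhabditis elegans lin-4, and miR-10 genes lie within the Hox clusters. All 7 members were tested and all 7 had a log2 fold change above 0, with a median of 1.14. At an unadjusted p under 0.05 and higher in KO HFFC stood 4 of the 7, against 4.84% of all entries, and 5 of the 7 did not overlap, against 6.85%. These counts include miR-125a-5p and miR-10b-5p, which passed the filter only through KO HFFC. Of the 5 others, all above 0 with a median of 0.73, 2 had such a p and 3 did not overlap. No member passed (lowest edgeR adjusted p 0.232), and this list too was chosen with earlier results of these data known. Together they took 1.38%, 1.08% and 0.999% of miRNA counts in KO HFFC, against 0.565%, 0.900% and 0.560% in flox HFFC, again with no overlap. All 7 stayed above 0 with library tag totals (median 1.03) and without KO HFFC replicates 2 and 3 (0.92), whereas miR-10a-5p was below 0, at −0.25, without KO HFFC replicate 1.

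miR-125a-5p had the lowest p of all entries. It had 19, 70 and 95 counts in KO HFFC, or 41.4, 131 and 284 CPM, against 0, 7 and 6 counts in flox HFFC, or 0, 12.5 and 14.6 CPM. The log2 fold change was 3.92 ± 0.90, and it was 2.15 without KO HFFC replicates 2 and 3, the higher libraries. miR-125b-5p had 421, 177 and 188 CPM in KO HFFC, against 83.6, 85.9 and 60.7 CPM in flox HFFC (1.77 ± 0.50). Its highest library was KO HFFC replicate 1, so its value without replicates 2 and 3 was 2.53 and without replicate 1 was 1.21. miR-10b-5p, from a hairpin in introns of Hoxd3 and Hoxd4, had only 13, 19 and 28 counts in KO HFFC, against 3, 4 and 1 in flox HFFC (2.81 ± 0.85, and 2.11 without replicates 2 and 3).

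miR-99b-5p had 554, 586 and 1161 CPM in KO HFFC, against 311, 481 and 250 CPM in flox HFFC (1.14 ± 0.46). miR-100-5p had 1378, 1383 and 1764 CPM in KO HFFC, against 801, 1364 and 568 CPM in flox HFFC (0.73 ± 0.44), values that do not overlap but nearly meet. The most abundant member, miR-99a-5p, had 9252, 6385 and 5053 CPM in KO HFFC, against 4589, 6837 and 4089 CPM in flox HFFC (0.42 ± 0.38), and the groups overlapped. miR-10a-5p lay at 0.16 ± 0.48. The largest fold changes thus belonged to miR-125a-5p and miR-10b-5p, the rarest members of these families.

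Several genes of these families are neighbours of let-7 genes. On chromosome 17 the mature miR-99b-5p starts at position 17830194, and the hairpins of let-7e (chr17:17830352-17830444) and miR-125a (chr17:17830812-17830879) follow on the plus strand within Spaca6. The log2 fold changes there were 1.14 ± 0.46 for miR-99b-5p, −0.23 ± 0.42 for let-7e-5p and 3.92 ± 0.90 for miR-125a-5p. On chromosome 16 the hairpins of miR-99a (chr16:77598936-77599000) and let-7c-1 (chr16:77599657-77599750) lie within Mir99ahg, and their products were at 0.42 ± 0.38 and −0.23 ± 0.27. let-7c-5p and miR-125b-5p also come from other hairpins, so mature values cannot be assigned to a locus. miR-99b-3p, the other arm of the miR-99b hairpin, was at 0.74 ± 0.87.

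**Figure D2:**
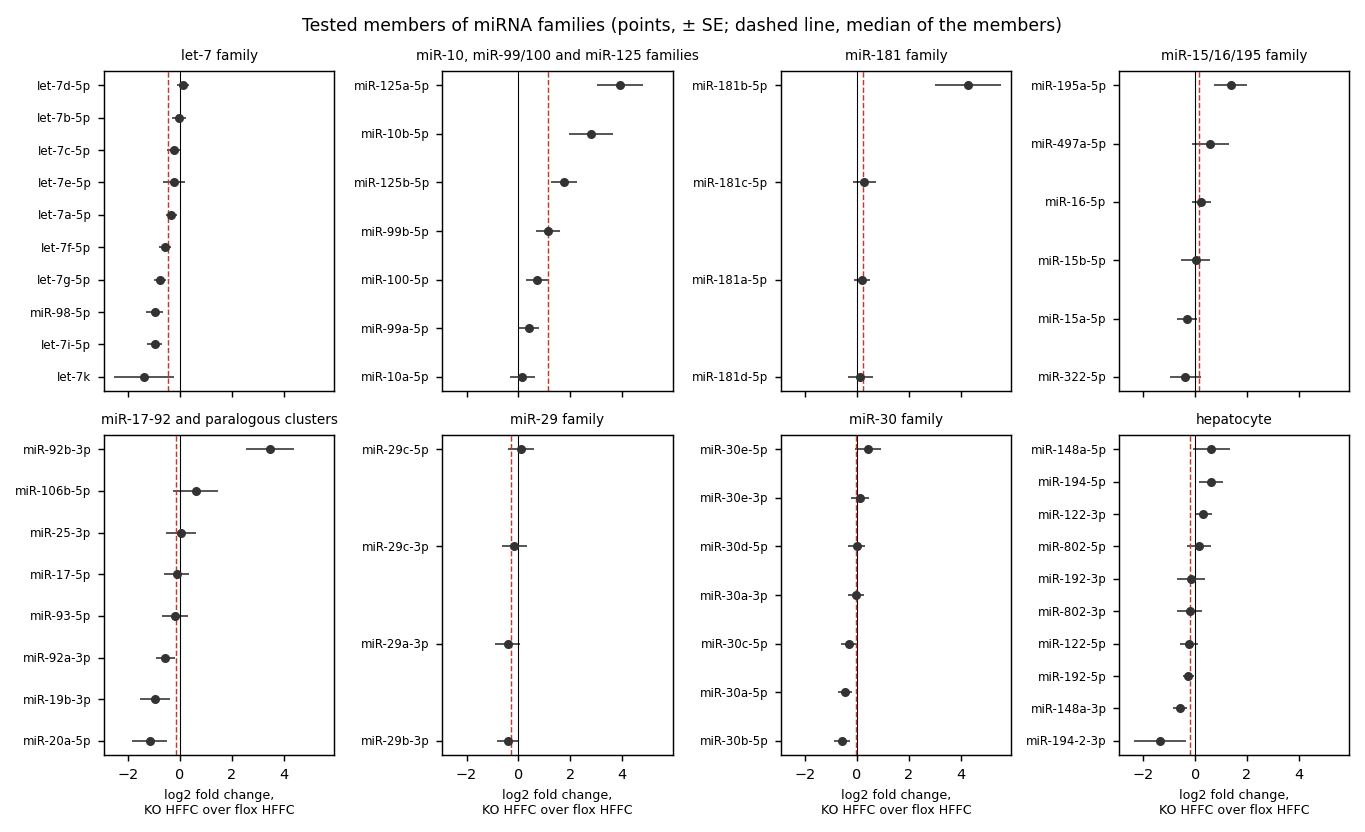
Log2 fold change of KO HFFC over flox HFFC (horizontal axis, ± SE) for the tested members of 7 families and of the hepatocyte list (one panel each), with the median of the members as a dashed line. In the let-7 panel 9 of 10 points lie left of 0, and in the panel of the miR-10, miR-99/100 and miR-125 families all 7 lie right of it.

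Among the other miRNAs with low p and higher values in KO HFFC, miR-127-3p had the lowest p. It comes from the imprinted Dlk1-Dio3 region, antisense to Rtl1 (hairpin chr12:109592846-109592915, plus strand), the transcript that it silences. It had 547, 237 and 364 CPM in KO HFFC, against 148, 85.9 and 117 CPM in flox HFFC (1.72 ± 0.45), and no library overlapped. Leaving out any single library kept it between 1.32 and 1.90, and without KO HFFC replicates 2 and 3 it was at 2.29. In flox chow it had 245, 326 and 238 CPM, close to the knockout values. The 3 other tested members of the cluster lay below 0, among them miR-411-5p at −0.71 ± 0.44 and miR-379-5p at −1.02 ± 0.50. The cluster as a whole had 4 tested members of the 47 in the table, a median of −0.38, and 0.154%, 0.166% and 0.127% of miRNA counts in KO HFFC, against 0.146%, 0.182% and 0.117% in flox HFFC.

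miR-92b-3p, which shares the seed of miR-92a, had 19, 79 and 199 counts in KO HFFC, against 6, 10 and 12 in flox HFFC. Its log2 fold change of 3.47 ± 0.94 was 2.01 without KO HFFC replicate 3 and 0.88 without replicates 2 and 3. miR-92a-3p, which differs from it at 2 of the aligned bases, went the other way in value with 750, 578 and 746 CPM in KO HFFC, against 1162, 1077 and 843 CPM in flox HFFC (−0.57 ± 0.37). miR-466i-5p, of a large rodent family whose near-identical copies make its counts uncertain, had 209, 1123 and 958 CPM in KO HFFC, against 160, 102 and 304 CPM in flox HFFC (2.02 ± 0.67, and 0.19 without replicates 2 and 3). miR-149-5p, encoded in an intron of the glypican gene Gpc1, had 74.2, 89.6 and 328 CPM in KO HFFC, against 22.8, 66.2 and 48.6 CPM in flox HFFC (1.80 ± 0.67, and 0.82 without replicate 3). miR-183-5p, a miRNA of sensory cells, had 30.5, 74.6 and 257 CPM in KO HFFC, against 19.0, 41.2 and 29.1 CPM in flox HFFC (1.97 ± 0.79, and 0.09 without replicates 2 and 3). The predicted entry miR311-3p had 21, 14 and 14 counts in KO HFFC, against 1, 4 and 2 in flox HFFC (2.72 ± 1.03). KO HFFC replicate 3 was the highest library of miR-92b-3p, miR-149-5p and miR-183-5p, whereas miR-466i-5p was high in replicates 2 and 3 alike. Predicted miR311-3p was at 3.09 without both.

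**Figure D3:**
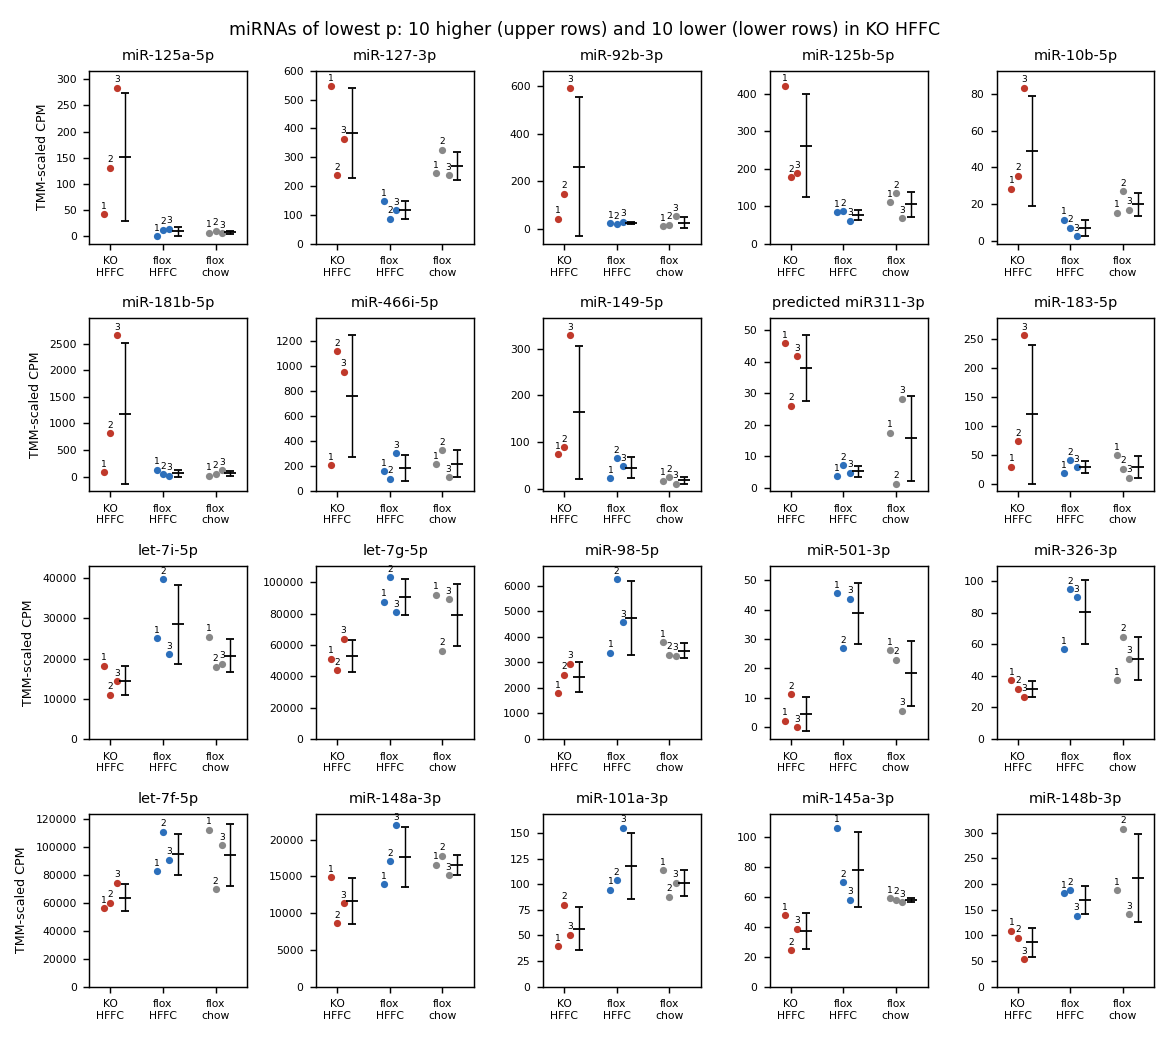
TMM-scaled CPM (vertical axes, linear) in every library of KO HFFC (red), flox HFFC (blue) and flox chow (grey) for the 10 entries of lowest p higher in KO HFFC (upper 2 rows of panels) and the 10 lower (lower 2 rows), with numerals marking the replicate and bars the mean ± SD (n = 3). miR-127-3p and let-7g-5p separate the HFFC groups in all libraries, whereas miR-181b-5p is high in KO HFFC replicates 2 and 3 only.

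Outside let-7, the entries of lowest p among those lower in KO HFFC were mostly rare. Of them, miR-145a-3p and miR-148b-3p did not reach an unadjusted edgeR p under 0.05. Without KO HFFC replicates 2 and 3, miR-501-3p was at −3.93, miR-326-3p at −1.05, miR-101a-3p at −1.53, miR-145a-3p at −0.62 and miR-148b-3p at −0.56. miR-501-3p, from an intron of Clcn5 on the X chromosome, had 1, 6 and 0 counts in KO HFFC, against 12, 15 and 18 in flox HFFC (−2.90 ± 1.02). Without KO HFFC replicate 2, the only knockout library with more than 1 count, its fitted value was −4.74, which rests on 1 count. miR-326-3p, from an intron of the β-arrestin gene Arrb1, had 17, 17 and 9 counts in KO HFFC, against 15, 53 and 37 in flox HFFC. After scaling these were 37.1, 31.7 and 26.9 CPM in KO HFFC and 57.0, 94.9 and 89.9 CPM in flox HFFC (−1.33 ± 0.51). miR-101a-3p, a repressor of Ezh2, had 18, 43 and 17 counts in KO HFFC, against 25, 58 and 64 in flox HFFC (−1.05 ± 0.47), and the groups did not overlap after scaling to CPM. miR-145a-3p, the minor arm of a smooth muscle miRNA, had 48.0, 24.3 and 38.8 CPM in KO HFFC, against 106, 69.8 and 58.3 CPM in flox HFFC (−1.07 ± 0.51), while its major arm miR-145a-5p lay at 0.13 ± 0.43.

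miR-148a-3p and miR-148b-3p share the seed CAGUGCA, and miR-148a is a hepatocyte miRNA that represses the LDL receptor. miR-148a-3p had 14866, 8648 and 11371 CPM in KO HFFC, against 13899, 17043 and 21987 CPM in flox HFFC (−0.60 ± 0.27). KO HFFC replicate 1 overlapped the flox HFFC libraries, and without replicates 2 and 3 the value was −0.19. miR-148b-3p had 109, 95.2 and 53.7 CPM in KO HFFC, against 182, 188 and 138 CPM in flox HFFC (−0.97 ± 0.47), without overlap. The third tested miRNA of this seed, miR-152-3p, was at 0.24.

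**Figure D4:**
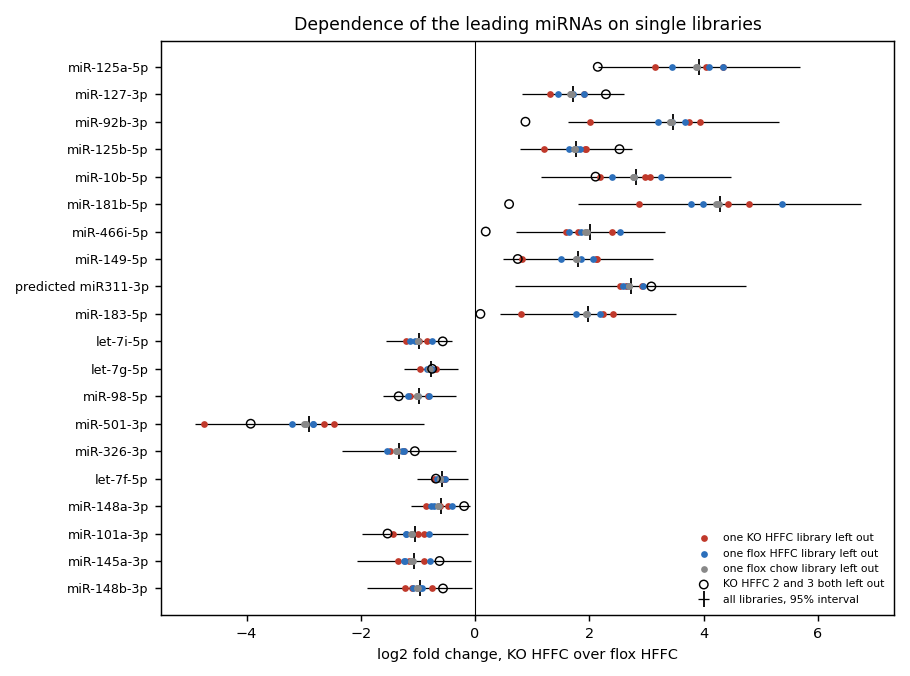
Log2 fold change of KO HFFC over flox HFFC (horizontal axis) for the same 20 entries (rows) with all libraries (vertical tick, line for the 95% interval), with each library left out in turn (filled points, coloured by its group) and with KO HFFC replicates 2 and 3 both left out (open circles). All 20 stay on their side of 0, but the open circles of miR-181b-5p, miR-92b-3p, miR-466i-5p, miR-149-5p and miR-183-5p lie between 0.09 and 0.88.

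The 8 miRNAs high in KO HFFC replicates 2 and 3 were led by miR-204-5p, a miRNA of pigmented and choroid plexus epithelium encoded in an intron of Trpm3. It had 5, 1125 and 2105 counts in KO HFFC, against 1, 2 and 1 in flox HFFC and 1, 1 and 4 in flox chow. miR-211-5p, which shares its seed and lies in an intron of Trpm1, had 0, 22 and 32 counts in KO HFFC and 0 in every flox library. Near-identical sequence may carry some reads of miR-204-5p to miR-211-5p. miR-205-5p, a miRNA of squamous and glandular epithelium, had 6, 101 and 161 counts in KO HFFC, against 0, 1 and 1 in flox HFFC. miR-200c-3p, which maintains epithelial identity by repressing Zeb factors, had 6, 59 and 117 counts in KO HFFC, against 6, 1 and 5 in flox HFFC. miR-135b-5p had 0, 72 and 133 counts in KO HFFC, against 0, 0 and 1 in flox HFFC. miR-27a-5p, the minor arm of miR-27a, had 0, 20 and 35 counts in KO HFFC and 0 in all 3 flox HFFC libraries. miR-935 had 2, 12 and 17 counts in KO HFFC and 0 in all flox HFFC libraries.

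These 7 miRNAs had 0 to 6 counts in KO HFFC replicate 1. They were removed by the low-count filter and have no test in the main edgeR fit. Without a filter edgeR called miR-200c-3p, miR-205-5p, miR-211-5p and miR-27a-5p among them. Without KO HFFC replicate 1 it called miR-204-5p, miR-205-5p and miR-135b-5p. The remaining miRNA, miR-181b-5p, had 40, 440 and 889 counts in KO HFFC, against 34, 24 and 6 in flox HFFC. Its log2 fold change of 4.28 ± 1.26 had groups that overlapped, and was 0.60 without replicates 2 and 3. The sister miRNAs of the same seed did not share this size: miR-181a-5p had 4637, 5499 and 6330 CPM in KO HFFC, against 5971, 5316 and 3057 CPM in flox HFFC (0.20 ± 0.31), and miR-181c-5p was at 0.29 ± 0.45. All 4 members of the family, whose miR-181a tunes T cell receptor signalling, were above 0 with a median of 0.24. miR-181b-5p and miR-181d-5p (0.13) differ at 1 aligned base.

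**Figure D5:**
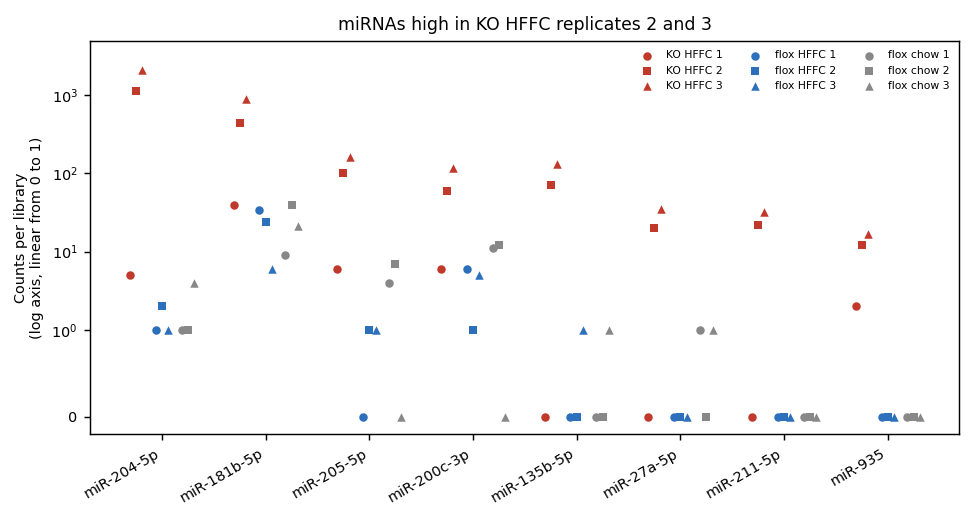
Counts per library (vertical axis, logarithmic above 1 and linear from 0 to 1) of the 8 miRNAs that stood out in KO HFFC replicates 2 and 3, for KO HFFC (red), flox HFFC (blue) and flox chow (grey), with the replicate given by the symbol. The squares and triangles of KO HFFC lie between 12 and 2105 counts, while KO HFFC replicate 1 and all flox libraries lie between 0 and 40.

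The epithelial list, to which miR-200c-3p and miR-205-5p belong, was read as a whole beside them. Of its 11 miRNAs 5 were tested, 4 of them above 0, with a median of 0.17. It took 0.235%, 0.190% and 0.291% of miRNA counts in KO HFFC, against 0.126%, 0.249% and 0.0662% in flox HFFC, so the groups overlapped and KO HFFC replicate 1 was not low. Its most abundant member miR-429-3p had 1675, 866 and 1415 CPM in KO HFFC, against 1026, 2116 and 367 CPM in flox HFFC (0.17 ± 0.55). miR-200a-3p was at 0.05 ± 0.49 and miR-203-3p at 0.19 ± 0.45. The part of epithelial vesicles in the pattern of replicates 2 and 3 was not tested.

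The summed shares of the lists for liver cell types overlapped between the groups. The hepatocyte list had 4 of 10 tested members above 0 (median −0.18), and took 32.8%, 28.5% and 35.6% of miRNA counts in KO HFFC, against 37.7%, 25.3% and 31.7% in flox HFFC. Without miR-148a-5p, which passed the low-count filter only through KO HFFC, 3 of 9 were above 0 (median −0.21). miR-122-5p, the dominant hepatocyte miRNA, had 202160, 175169 and 246079 CPM in KO HFFC, against 325640, 180272 and 224398 CPM in flox HFFC (−0.23 ± 0.35). Its 95% interval ran from −0.92 to 0.46. miR-192-5p was at −0.26 ± 0.20. Without KO HFFC replicates 2 and 3 the hepatocyte list had 6 of 10 above 0 and a median of 0.17. Of the endothelial pair, miR-126a-3p was at −0.06 ± 0.22 and miR-126a-5p at −0.07 ± 0.37, and their summed share ran from 5.25% to 6.70% in KO HFFC and 4.35% to 6.18% in flox HFFC.

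The mesenchymal list, for stellate and smooth muscle cells, had 6 of 8 tested members above 0 and a median of 0.13, with miR-143-3p at 0.10 ± 0.28. Its summed share was 1.51% ± 0.396 in KO HFFC and 1.27% ± 0.236 in flox HFFC (SD, n = 3 each). miR-199a-3p and miR-199b-3p, whose mature sequences can hardly be told apart, were each high in different libraries. KO HFFC had 340, 26 and 455 counts of miR-199a-3p, against 12, 56 and 730 in flox HFFC, and 25, 1219 and 7 counts of miR-199b-3p, against 376, 1868 and 5 in flox HFFC. Their fold changes of 0.16 ± 1.52 and −1.02 ± 2.62 are therefore uncertain. The immune cell list had 3 of 8 above 0 (median −0.13), with miR-146a-5p, a brake on Toll-like receptor signalling, at −0.10 ± 0.30, miR-150-5p at 0.14 ± 0.44 and the inflammatory miR-155-5p at −0.33 ± 0.44. It took 1.29% to 2.31% of miRNA counts in KO HFFC and 1.42% to 2.21% in flox HFFC. The erythroid list had 1 of 6 above 0 (median −0.58), with miR-451a at −0.43 ± 0.31, miR-486a-5p at 0.26 ± 1.55 and miR-486b-5p at −2.03 ± 0.97. It took 0.625% to 0.793% in KO HFFC and 0.690% to 0.877% in flox HFFC. Without miR-486b-3p, which passed the low-count filter only with both HFFC groups, 1 of 5 was above 0 (median −0.53). miR-486a-5p and miR-486b-5p can hardly be told apart either, so their separate values are equally uncertain. The lists count each row of such a pair as a member. Of the muscle list 2 members were tested, miR-1a-3p at −0.09 ± 1.42 and miR-206-3p at 0.40 ± 1.59, which passed the low-count filter only through KO HFFC. Muscle miRNAs took 0.592% of miRNA counts in flox chow replicate 3, against at most 0.0277% in the HFFC libraries, where miR-1a-1-5p was at 0, and flox chow replicate 3 enters the spread behind those errors.

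miRNAs known from lipid handling, insulin signalling and fibrosis had 3 of 14 tested members above 0 and a median of −0.16. miR-22-3p, which is abundant in liver and affects lipid oxidation, had 54091, 39935 and 36149 CPM in KO HFFC, against 36652, 34814 and 36368 CPM in flox HFFC (0.27 ± 0.23). The p53-induced miR-34a-5p was at −0.16 ± 0.51. The profibrotic miR-21a-5p had 15588, 33315 and 10261 CPM in KO HFFC, against 26199, 29036 and 37446 CPM in flox HFFC (−0.65 ± 0.42). KO HFFC replicate 2 lay among the flox HFFC libraries, and without it the value was −1.30. The antifibrotic miR-29 family had 1 of 4 above 0 (median −0.28), with miR-29b-3p at −0.42 ± 0.40, miR-29a-3p at −0.41 ± 0.49 and miR-29c-3p at −0.16 ± 0.47. Without KO HFFC replicates 2 and 3 its median was 0.29, so no direction can be given for it.

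Medians of the other families and clusters ran from −1.30 to 0.13. The miR-30 family had 2 of 7 above 0 (median −0.03), with miR-30c-5p at −0.32 ± 0.29, miR-30a-5p at −0.46 ± 0.28 and miR-30b-5p at −0.56 ± 0.31. The family of miR-15, miR-16 and miR-195, which restrains the cell cycle, had 4 of 6 above 0 (median 0.13), with miR-16-5p at 0.24 ± 0.36 and miR-15a-5p at −0.31 ± 0.38. In that family miR-195a-5p had 1040, 651 and 588 CPM in KO HFFC, against 228, 394 and 262 CPM in flox HFFC (1.36 ± 0.64), with no overlap. The miR-17-92 group had 3 of 8 above 0 (median −0.16), including miR-93-5p at −0.19 ± 0.49 and miR-25-3p at 0.05 ± 0.58. Without miR-92b-3p, which passed the low-count filter only through KO HFFC, 2 of 7 were above 0 (median −0.19). The miR-23, miR-27 and miR-24 clusters had 3 of 5 above 0 (median 0.05). Among them miR-24-3p had 12227, 9628 and 10010 CPM in KO HFFC, against 6078, 8443 and 8682 CPM in flox HFFC (0.46 ± 0.26), while miR-27b-3p was at −0.37 ± 0.23 and miR-27a-3p at 0.05 ± 0.29. Mature miR-24-3p comes from hairpins beside both miR-27 genes. The Clcn5 cluster had 1 of 3 above 0 (median −1.30), with miR-532-5p at 0.08 ± 0.42 and miR-362-3p at −1.30 ± 1.26 beside miR-501-3p, both of them rare. miR-501-3p passed the low-count filter only through flox HFFC, and miR-362-3p only with both HFFC groups. The other member, miR-532-5p, lay within its SE of 0, so no direction can be given for the cluster.

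The 10 most abundant entries of each library, which were not the same in all, held 64.3% ± 2.37 of its miRNA counts in KO HFFC and 67.3% ± 2.52 in flox HFFC (SD, n = 3 each, exact two-sided permutation test, p = 0.2). Of the 10 with the highest mean share over the 6 libraries, only let-7f-5p and let-7g-5p had an unadjusted p under 0.05. miR-26a-5p was at −0.34 ± 0.24, and the others are given with their families. Entries with at least 1 count numbered 433, 483 and 443 in KO HFFC, against 367, 448 and 410 in flox HFFC (exact two-sided permutation test, p = 0.3). Both arms were tested for 31 hairpins, and the arms had the same sign in 18 of them, 9 higher and 9 lower in KO HFFC. The 30 tested predicted entries had 20 log2 fold changes above 0 and a median of 0.48. Without KO HFFC replicates 2 and 3 that was 14 and −0.07, and without flox HFFC replicate 2 it was 15 and 0.07, so no direction can be given.

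The miRNAs that the study singled out were chosen on these same libraries, so their values are no independent evidence of a direction. miR-28a-5p, the mouse miRNA of that number, had 39, 33 and 25 counts in KO HFFC, against 23, 53 and 21 in flox HFFC. Its log2 fold change was −0.08 ± 0.52, with a 95% interval from −1.09 to 0.94 and an edgeR adjusted p of 0.954. A separate predicted entry carries the name miR28-5p and had 0, 1 and 0 counts in KO HFFC, against 10, 3 and 4 in flox HFFC. Whether it relates to the miRNA of that number was not tested. miR-3473a had 0 counts in all 3 KO HFFC libraries, against 6, 4 and 7 in flox HFFC, and miR-500-3p had 0 in all 3, against 1, 6 and 18. These 3 entries were removed by the low-count filter and carry no test in the main fit, and each 0 allows up to 3 counts. The predicted entry miR489-3p had 83, 58 and 9 counts in KO HFFC, against 66, 11 and 127 in flox HFFC (−0.85 ± 1.42), and the groups overlapped.

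The filter removed 474 entries, 373 known and 101 predicted. Those with the most counts over the 6 libraries were mainly miRNAs of KO HFFC replicates 2 and 3, given above. Beside them, miR-582-5p had 3, 22 and 6 counts in KO HFFC, against 12, 13 and 8 in flox HFFC. miR-3105-5p had 8, 0 and 14 counts in KO HFFC, against 3, 25 and 8 in flox HFFC, and predicted miR474-3p had 9, 38 and 1 in KO HFFC, against 0, 16 and 5 in flox HFFC. In these the groups overlapped.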

How the data were processed

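Small RNA of liver exosomes was sequenced in 9 libraries, grouped by the sample titles. The authors deposited whole-number counts per mature miRNA and RPM values, which are counts divided by a tag total per library, as multiplying back showed to within 0.167 counts. The group means that the authors deposited were not used. All columns were mapped and 0 were left over. The study's methods (NEBNext kit, exosomal RNA) and the protocol in the labels (total RNA of tissue, gel cut, adapters with molecular identifiers) differ, and the collapsing of identifiers was not given in the sources used here. Bowtie2 is named in the submitters' processing notes. The genome build and counting tool were not given in the sources used here.

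Counts were tested with edgeR 4.0.16 in R 4.3.3: TMM factors, filterByExpr (minimum 10 counts), quasi-likelihood test with robust dispersions, 1 fit of all 9 libraries without covariates, Benjamini-Hochberg over 248 entries. The SE is the fold change over the root of F, and intervals of fold changes span 1.96 SE on either side. Such an interval can exclude 0 where the unadjusted edgeR p is above 0.05. The study used DEGseq, which pools libraries, so a Poisson test of pooled counts was an alternative, beside other scalings, filters, DESeq2 1.42.0, limma 3.58.1, a replicate block and libraries left out. Wilson intervals and floors cover counting error only. The lowest chi-square per degree of freedom between HFFC replicates of a group was 73.6, so no HFFC library duplicated another of its own group. Libraries of different groups were not compared in this way. The method was tested on simulated data.

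Members and lists were chosen with earlier results of these data known. Named are the 10 entries of lowest p in each direction, the 10 most abundant, those the study names, up to 3 abundant members of each list and the 8 most counted entries removed by the filter. Chosen after seeing their values were let-7b-5p, let-7d-5p, let-7e-5p, let-7k, let-7i-3p, let-7f-2-3p, miR-99b-5p, miR-99b-3p, miR-145a-5p, miR-152-3p, miR-181d-5p, miR-211-5p and miR-935. Hairpin positions and hosts are from RefSeq (GRCm38.p6) and GENCODE M21.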

Additional observations from a re-analysis of the deposited data

How the results depend on the processing

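The count of called entries, 0 by edgeR, was 1 with library tag totals (miR-181b-5p), 7 without a filter, 5 with DESeq2 and 161 with pooled counts under Poisson sampling, which ignores the spread between mice. It was 0 at an adjusted p of 0.10, with other scaling factors, a filter at 50 CPM, predicted entries left out, limma-voom or the 6 HFFC libraries alone. Leaving out single libraries gave 0 to 5. Same-numbered KO HFFC and flox HFFC libraries had deviations that correlated at −0.0420, 0.0189 and 0.221. Pairs of different numbers ran from −0.198 to 0.155. With 3 libraries a group this cannot settle whether the numbers pair mice, and the main fit took no pairing. With a replicate block edgeR called 0 on 9 libraries and 1 on 6 (miR-125a-5p). Entries without overlap, 35, numbered 63 without a filter, 37 to 84 with 1 library left out and 134 without KO HFFC replicates 2 and 3, an alternative chosen after seeing the data. Fewer libraries overlap less often by construction. The difference in percent of tags ran from −0.487 to 0.132 with 1 library left out. Of the 70 named entries that were tested, 43 kept their sign in every alternative fit other than pooled counts (up to 21) and 42 with pooled counts as well, among them the 20 of lowest p. The other 27 changed sign in at least 1 of those fits, and 26 of these lay within 1 SE of 0. miR-29b-3p reversed to 0.23 without KO HFFC replicates 2 and 3, and pooled counts put miR-192-5p at 0.00955. The cause was not tested. Pooled counts also put 65.7% of entries above 0. Counts under 30 per library, as in miR-10b-5p, miR-501-3p and predicted miR311-3p, limit what can be read from single entries.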
